A study of Mus musculus with 8 samples.

Results

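The erythroid and heme synthesis genes are 36 genes named for their roles in making red blood cells: globins, the enzymes of heme synthesis, mitochondrial carriers, red cell membrane and membrane skeleton proteins, cytosolic proteins and the regulators of erythroid differentiation. Each gene was represented by its probe with the highest mean signal on Illumina MouseRef-8 v2 bead arrays. Of the 36 genes, 32 had an annotated probe among the 16593 genes of the array, and 27 were above background on at least 2 arrays and entered a test over 10252 genes. No values are given for Hbb-b1, Car1, Slc25a37 and Epb41, for which no probe carried the symbol, and Epb42, Gata1, Rhd, Add2 and Bpgm had a probe but did not pass the filter.

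All mice were female C57BL/6 of 6 to 8 weeks. In the LT group, lipopolysaccharide (LPS, a bacterial endotoxin) was injected into the peritoneum and HY209, the bile salt sodium taurodeoxycholate, was injected intravenously 30 min later (3 arrays, numbered 1 to 3). The LPS group received LPS and then PBS (3 arrays, numbered 1 to 3), and the PBS group received PBS in place of both agents (2 arrays, numbered 1 and 3). Spleens were taken at 48 h and pooled, and Gr1+ cells were isolated with magnetic beads. No array held cells of mice given HY209 without LPS. The labels state pools of 10 to 15 spleens in one place and of 30 to 40 in another, so it cannot be told whether every array had mice of its own, and p-values measure only the spread between arrays.

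Gr1 marks granulocytes and some monocytes, and over 95% of the sorted cells carried CD11b, per the labels. The neutrophil marker S100a8, a calcium-binding protein of granulocytes, was read near the top of the scale. It stood at 61212 ± 1664 in LT, 62004 ± 501 in LPS and 58814 ± 953 in PBS. Other neutrophil markers ranged from there down to near background. The erythroid genes were therefore read in cells that the sort did not select for them. Signal per array was set by the deposited quantile normalization, with a median intensity of 169.7 and 13049 of 25697 probes (50.8%) above background on each. Intensities are printed as deposited, in arbitrary units, with the SD between the arrays of each group after the ± sign. Folds and log2 changes come from background-corrected values and therefore differ from ratios of the printed intensities. The ± sign after a log2 change gives its standard error. A gene was called higher or lower where the adjusted p of limma was under 0.05. In bulk RNA, fewer cells of a type and less RNA per cell cannot be told apart.

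Red cells arise from committed progenitors that take up iron, build heme in a chain of enzymes split between mitochondria and cytosol, and load it into globin chains. GATA1, KLF1 and the TAL1 complex with LMO2 switch on globin, heme enzyme and membrane genes together, and erythropoietin acting on its receptor keeps the progenitors alive. In adult mice the spleen is, beside the marrow, a site of red cell formation that can expand under stress, and it is also where macrophages remove old red cells.

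The members covered the whole range of signal, from Hba-a1 near the top of the scale to genes close to background. A group mean over 1000 was reached by 9 of the 27 tested members, and 11 had every group mean under 300. On all 8 arrays 15 members were above background, and 7 members were above background on no LPS array. The 5 members that did not pass the filter lay between 127 and 170.1, against a background threshold of 168.6. Gata1, the master regulator of the erythroid lineage, exceeded the threshold on 1 array (LPS 2). The membrane protein genes Epb42 and Rhd, the skeleton gene Add2 and Bpgm, which makes the oxygen-releasing metabolite of red cells, exceeded it on no array.

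**Figure D1:**
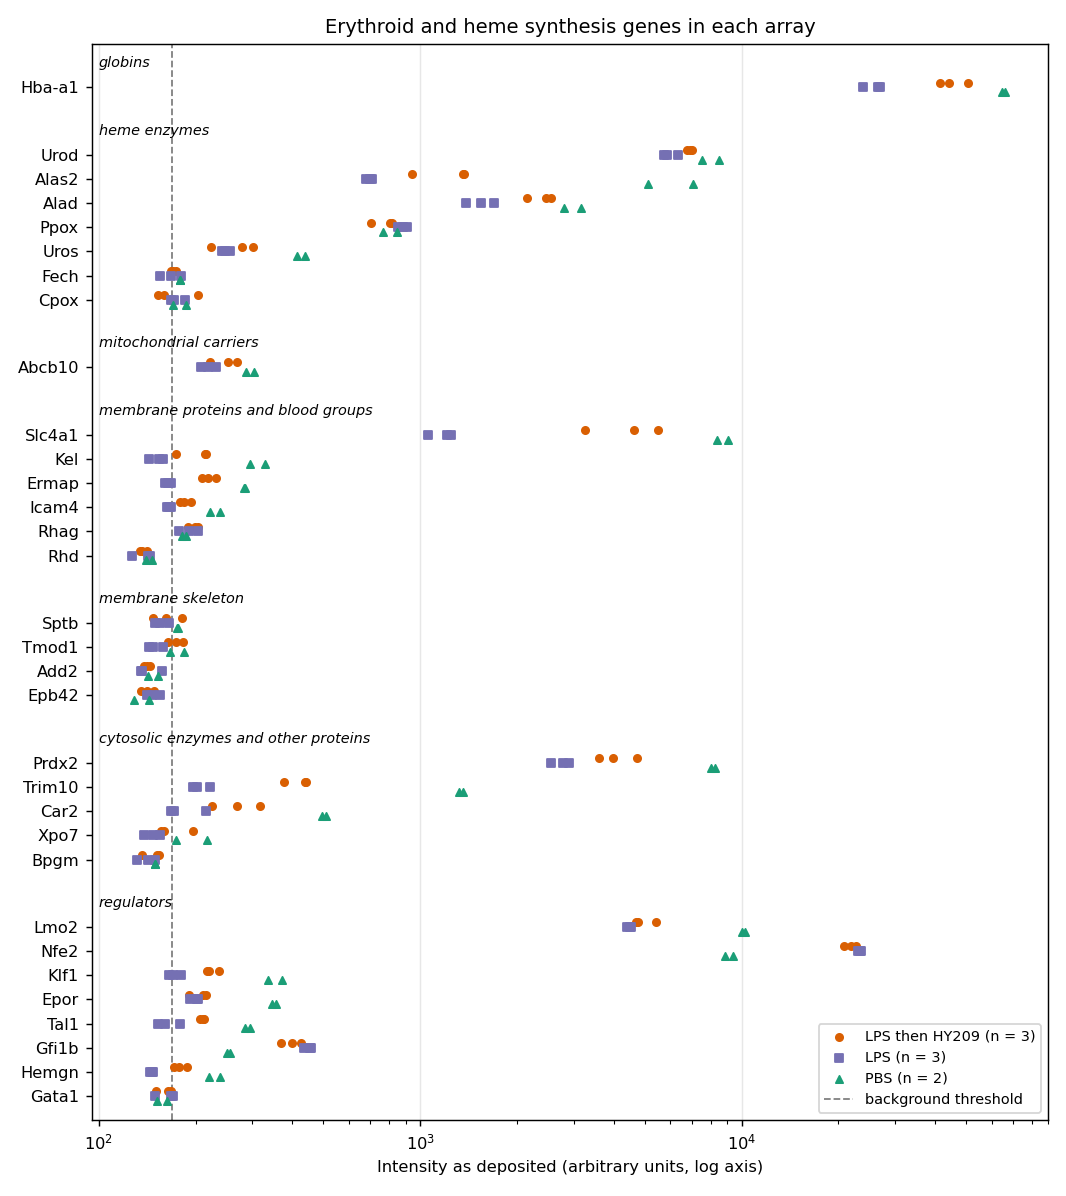
Deposited intensity of the 32 members with a probe, on a log axis in arbitrary units, grouped by role; each point is 1 array (circles LPS then HY209, squares LPS, triangles PBS) and the dashed line is the background threshold of 168.6. Hba-a1, Slc4a1, Alas2, Trim10 and Prdx2 lie highest in PBS and lowest in LPS with the LPS then HY209 arrays between, while Nfe2 and Gfi1b lie lowest in PBS.

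The comparison of LPS with PBS asks how endotoxin changed these genes. Most of the tested members were lower after LPS. Of 27 tested members, 20 fell, 2 rose and 5 were not called, with a median log2 change of -0.99, against 0.00 over all genes tested. Over all 10252 genes, 30.0% were lower and 25.6% higher in this comparison. The LPS and PBS arrays did not overlap for 24 of the 27 members, and they did not overlap for 71.1% of all genes. With the 7 members below background on every LPS array set at their bounds, the median was -0.98. These 7 passed the filter only through PBS or LT arrays, so a call of higher in LPS was hardly open to them. Without the filter, 20 of 32 members were lower and 2 higher, against 2946 and 2468 of 16593 genes.

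Alas2, the erythroid enzyme that starts heme synthesis and sets its rate, had 1361, 943 and 1364 in LT arrays, 710.4, 699.6 and 677 in LPS arrays and 7060.2 and 5101 in PBS arrays. The LPS arrays lay close together and far below both PBS arrays, which differed from each other by more than the LPS arrays did. Alas2 fell 9.45-fold after LPS (-3.24 ± 0.17 on the log2 scale, adjusted p = 2e-08). Trim10, a ring finger protein needed for terminal erythroid differentiation, had 438, 377 and 440.3 in LT arrays, 202, 197 and 221 in LPS arrays and 1354 and 1317 in PBS arrays. It was 9.15-fold lower in LPS (-3.19 ± 0.11, adjusted p = 6e-10). A second probe of Trim10 was called lower as well, with means of 171 in LT, 153 in LPS and 239.9 in PBS, and the size of its change is limited by background, since the LPS mean is under the threshold.

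Slc4a1, band 3, is the anion exchanger that carries bicarbonate across the red cell membrane, and it had 5507, 3263 and 4636 in LT arrays, 1215, 1055 and 1244 in LPS arrays and 9055 and 8377 in PBS arrays. All LPS arrays were below all PBS arrays, with a log2 change of -2.97 ± 0.18 (adjusted p = 4.9e-08). Hba-a1, an alpha globin gene, lay near the top of the scale, with 50687, 41448 and 44033 in LT arrays, 26941, 26534 and 23801 in LPS arrays and 64679 and 65787 in PBS arrays. It changed by -1.34 ± 0.11 (adjusted p = 5.3e-07). The PBS arrays stood next to the highest intensity on the arrays (66399), where differences can be compressed, and the near-identical copy Hba-a2 may share the probe.

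The heme enzymes after Alas2 moved unevenly. Alad, which joins the precursors into porphobilinogen, had 2459, 2146 and 2556 in LT arrays, 1546, 1387 and 1699 in LPS arrays and 2793 and 3159.6 in PBS arrays and changed by -0.98 ± 0.12 (adjusted p = 1.9e-05). Uros, which closes the porphyrin ring, was at 268 ± 40.0 in LT, 248 ± 6.76 in LPS and 426 ± 16.8 in PBS and changed by -0.99 ± 0.14. A second probe of Uros, with an LPS mean of 157 under the threshold, was called lower too (adjusted p = 0.038 over all probes). Urod, which trims the side chains of the ring, was at 6901 ± 126 in LT, 5984 ± 314 in LPS and 8016 ± 678 in PBS, and fell after LPS (-0.42 ± 0.09, adjusted p = 0.0021). The last steps of the pathway are Cpox, Ppox and Fech, and none of these was called. Ppox was bright enough to be read on every array, at 776 ± 63.1 in LT, 882 ± 26.8 in LPS and 808 ± 57.5 in PBS (0.14 ± 0.10, adjusted p = 0.27). Cpox and Fech, the enzyme that inserts iron, lay between 153 and 203 on all arrays, around the background threshold, with changes of -0.04 ± 0.17 and -0.16 ± 0.11 (adjusted p = 0.85 and adjusted p = 0.23). Abcb10, a transporter of the inner mitochondrial membrane that is induced in erythroid differentiation, changed by -0.59 ± 0.12, at 248 ± 23.9 in LT, 219 ± 11.4 in LPS and 295 ± 11.9 in PBS.

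Among the blood group and membrane protein genes, 4 of the 5 tested fell. Kel, the Kell metalloprotease, had 216, 174 and 214 in LT arrays, 143, 154 and 159 in LPS arrays and 296 and 328 in PBS arrays, with no LPS array above background, and was at least 2.42-fold lower after LPS (adjusted p = 2.5e-06). Ermap, a butyrophilin-like protein of the erythroid membrane, was at least 2.14-fold lower, at 220.0 ± 10.7 in LT, 165 ± 3.56 in LPS and 284 ± 2.27 in PBS. Icam4, an adhesion molecule that in humans carries the Landsteiner-Wiener antigens, was at least 1.61-fold lower, at 186 ± 7.29 in LT, 165 ± 2.38 in LPS and 230.1 ± 12.6 in PBS. Rhag, the ammonia channel of the Rh complex, was at 197 ± 6.65 in LT, 191 ± 13.2 in LPS and 184 ± 4.18 in PBS and was not called (0.07 ± 0.11, adjusted p = 0.59). Another Rhag probe, with an LPS mean of 153 under the threshold, was called lower (adjusted p = 0.0085 over all probes), so the calls of the Rhag probes disagree.

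The membrane skeleton could hardly be read. Sptb, the beta chain of erythroid spectrin, was at 164 ± 17.3 in LT, 157 ± 7.99 in LPS and 176 ± 0.912 in PBS, with no LPS array above background, and was not called (adjusted p = 0.091). Tmod1, which caps actin filaments in the skeleton, was at least 1.06-fold lower in LPS (adjusted p = 0.013), with 183, 173 and 164 in LT arrays, 147, 158 and 144 in LPS arrays and 166 and 185 in PBS arrays. All these values lie within a narrow band around the threshold, and Tmod1 was not called without PBS 3 (adjusted p = 0.16).

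The cytosolic proteins fell without exception among the 4 tested, which does not include Bpgm. Prdx2, an abundant peroxide-removing enzyme of red cells that other cells also carry, had 4740.1, 3597 and 3971 in LT arrays, 2778, 2904 and 2542 in LPS arrays and 8278 and 8016 in PBS arrays and was 3.03-fold lower (-1.60 ± 0.12, adjusted p = 3.3e-07). Its other probes, at most 416 in any group mean, were not called. Car2, the carbonic anhydrase that forms bicarbonate, had 318, 269.9 and 224 in LT arrays, 171, 216 and 167 in LPS arrays and 493 and 508 in PBS arrays. Its LPS arrays were all below its PBS arrays (-1.91 ± 0.19, adjusted p = 4.5e-06). Xpo7, a nuclear export receptor that acts in condensing the erythroid nucleus, was at least 1.25-fold lower, at 170.4 ± 22.1 in LT, 147 ± 8.40 in LPS and 195 ± 30.4 in PBS, a call that was lost without PBS 3 (adjusted p = 0.12).

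The regulators divided. Klf1, the erythroid Kruppel-like factor that activates globin and heme genes, had 220.1, 217 and 237 in LT arrays, 165, 171 and 181 in LPS arrays and 336 and 371 in PBS arrays and changed by -1.45 ± 0.10 (adjusted p = 2.3e-07). Tal1, a basic helix-loop-helix factor of early blood formation, had 207, 211 and 213 in LT arrays, 153, 178 and 161 in LPS arrays and 296 and 285 in PBS arrays and changed by -1.22 ± 0.11 (adjusted p = 1.8e-06). Lmo2, the bridging protein of the Tal1 complex, which is also active in endothelium and progenitors, had 5399.9, 4748 and 4705 in LT arrays, 4533, 4391 and 4478 in LPS arrays and 9989.9 and 10243 in PBS arrays and a change of -1.19 ± 0.09 (adjusted p = 4.8e-07). Epor, the erythropoietin receptor, had 216, 190.3 and 211 in LT arrays, 204, 192 and 203 in LPS arrays and 346 and 356 in PBS arrays and changed by -1.10 ± 0.10 (adjusted p = 2.1e-06). Hemgn, a nuclear protein of erythroid progenitors, was at least 1.59-fold lower, at 179 ± 8.16 in LT, 146 ± 1.61 in LPS and 229 ± 13.0 in PBS.

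Nfe2 and Gfi1b were the members that rose. Nfe2, a leucine zipper factor that activates globin genes and is also needed for platelet release, had 20803, 22713 and 21900.0 in LT arrays, 23528, 23312 and 22967 in LPS arrays and 9365 and 8889 in PBS arrays. The LPS arrays were 2.56-fold above the PBS arrays (1.36 ± 0.09, adjusted p = 8.6e-08). Gfi1b, a zinc finger repressor of the erythroid and megakaryocyte lineages, had 369.7, 399.5 and 425 in LT arrays, 433, 454 and 457 in LPS arrays and 251 and 257 in PBS arrays and changed by 1.03 ± 0.10 (adjusted p = 2.2e-06). The summed signal of the 7 tested regulators, in which bright probes such as that of Nfe2 weigh most, stood at 132% to 138% of the PBS mean in LT arrays, 138% to 141% in LPS arrays and 99.6% to 100.4% in PBS arrays. For the 7 heme enzymes the same sums were 59.5% to 66.0% in LT, 49.7% to 54.6% in LPS and 92.8% to 107% in PBS.

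**Figure D2:**
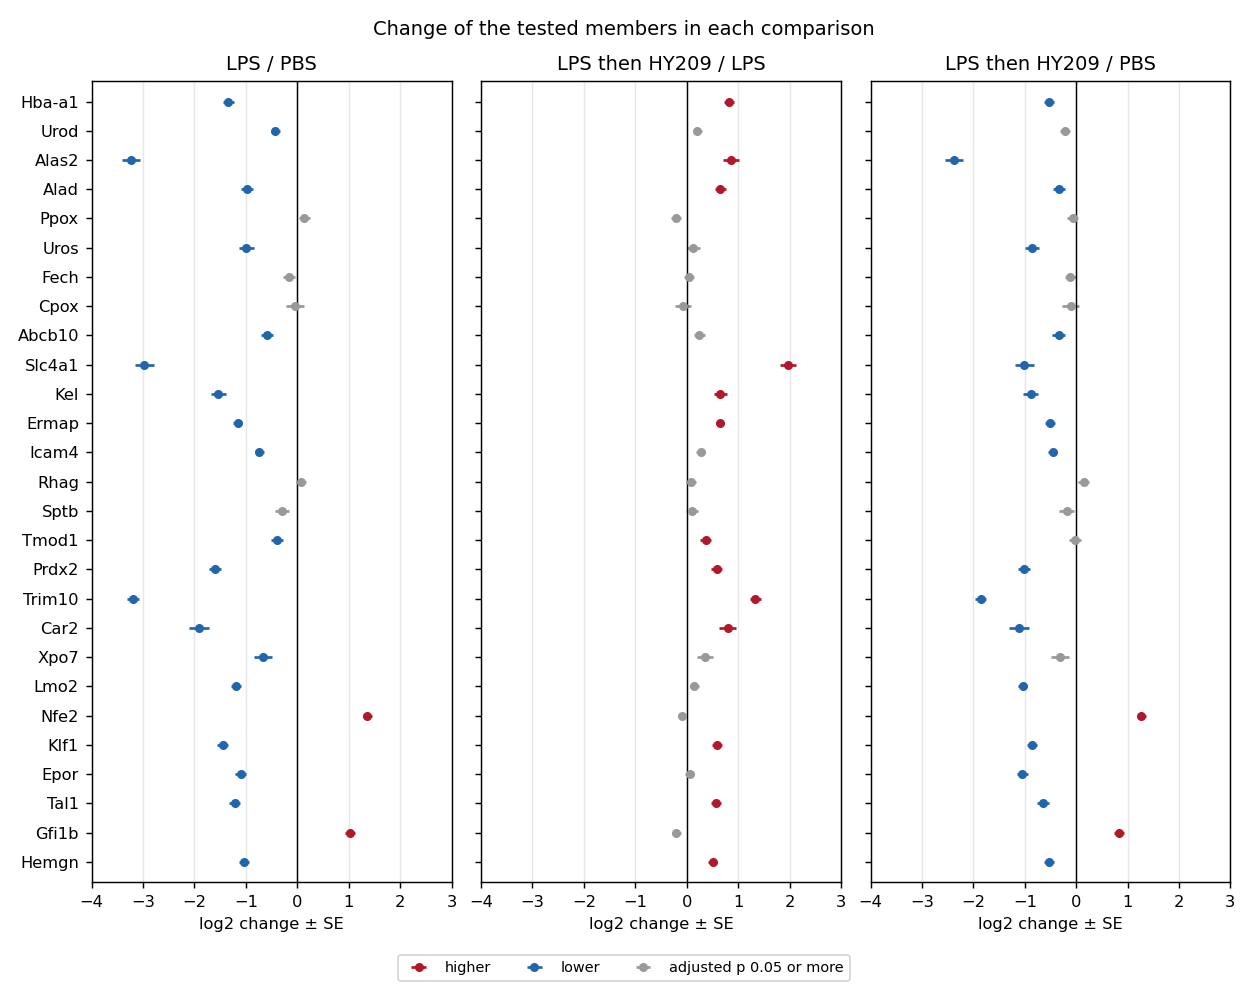
Log2 change with its standard error for the 27 tested members in LPS over PBS, LPS then HY209 over LPS, and LPS then HY209 over PBS; red marks genes called higher, blue genes called lower and grey genes not called. For the 7 members above background on no LPS array, the plotted changes against LPS or of LPS are limited by background. In the left panel 20 members lie below 0 as called and Nfe2 and Gfi1b above, and in the middle panel the 13 called members all lie above 0.

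The promoters of the members were read for motifs known to be bound by the erythroid factors. RefSeq windows of the 250 bases before the start site (GRCm38.p6) were held for 26 of the 32 members with a probe. A GATA motif, meaning GATA with A or T just before it and A or G just after it on either strand, was present for 16 of these 26 genes (61.5%), against 27.1% of 27025 genes with a window. Among the members lower in LPS, 10 of 16 held it (62.5%), close to the share of all 26. Urod, Uros, Alad, Tmod1, Prdx2 and Abcb10 were lower and held none in the counted window. Of the members not called lower or not tested, Epb42, Gfi1b, Rhag, Rhd, Cpox and Add2 held it, and Sptb, Gata1, Ppox and Bpgm did not. The KLF1-type CACC box, searched as CCNCNCCC on either strand, was present for 13 of 26 members (50%) and 45.6% of all genes. An E-box 7 to 9 bases before GATA, the arrangement of the TAL1 and GATA1 complex (CANNTG, the gap, then GATA), was present for 2 members (7.69%, against 1.44% of all genes), Epb42 and Hemgn. The NF-E2 core TGANTCA was present for 2 members (7.69%, against 6.87% of all genes), Trim10 and Kel. A match describes these letters and is not a measured site.

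The windows of 4 members that fell after LPS and of Gfi1b, which rose, are given 5′ to 3′ on the strand of the gene, with GATA motifs and CACC boxes in capitals on whichever strand they lie. Adjoining or overlapping matches form one run of capitals. The Alas2 window is chrX:150547167-150547416 (plus strand), that of Trim10 chr17:36869324-36869573 (plus strand), of Hba-a1 chr11:32283422-32283671 (plus strand), of Klf1 chr8:84901732-84901981 (plus strand) and of Gfi1b chr2:28621983-28622232 (minus strand).
Alas2: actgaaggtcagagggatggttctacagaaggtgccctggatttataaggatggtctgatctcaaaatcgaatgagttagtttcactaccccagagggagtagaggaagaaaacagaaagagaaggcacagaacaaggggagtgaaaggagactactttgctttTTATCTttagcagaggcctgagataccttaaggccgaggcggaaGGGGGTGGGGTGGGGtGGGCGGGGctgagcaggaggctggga
Trim10: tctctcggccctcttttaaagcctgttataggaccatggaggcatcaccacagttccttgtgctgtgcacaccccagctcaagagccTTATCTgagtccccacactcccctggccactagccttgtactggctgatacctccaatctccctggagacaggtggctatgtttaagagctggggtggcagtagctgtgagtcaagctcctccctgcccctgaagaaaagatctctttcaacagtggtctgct
Hba-a1: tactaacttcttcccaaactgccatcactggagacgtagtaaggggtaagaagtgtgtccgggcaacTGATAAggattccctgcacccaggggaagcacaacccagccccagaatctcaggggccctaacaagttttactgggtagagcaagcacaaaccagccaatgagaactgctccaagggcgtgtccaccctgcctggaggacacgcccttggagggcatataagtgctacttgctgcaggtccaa
Klf1: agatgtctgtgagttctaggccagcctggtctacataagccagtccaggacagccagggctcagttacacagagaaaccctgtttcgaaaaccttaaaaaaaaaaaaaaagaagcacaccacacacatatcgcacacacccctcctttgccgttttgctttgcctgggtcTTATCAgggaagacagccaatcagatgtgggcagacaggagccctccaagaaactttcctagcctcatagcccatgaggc
Gfi1b: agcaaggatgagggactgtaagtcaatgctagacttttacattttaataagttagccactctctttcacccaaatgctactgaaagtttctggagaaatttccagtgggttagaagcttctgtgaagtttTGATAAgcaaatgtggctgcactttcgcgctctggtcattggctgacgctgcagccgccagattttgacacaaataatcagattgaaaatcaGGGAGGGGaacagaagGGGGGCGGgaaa
Each of the 5 windows holds 1 GATA motif, and no window without one is printed. In Alas2, whose fall after LPS was with that of Trim10 the largest among the members, 4 CACC box matches on the opposite strand lie close to the start site. Gfi1b also has both kinds of motif, GATA and CACC box, and its arrays moved the other way.

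The comparison of LT with LPS asks what HY209 changed in mice that had also received LPS. Some of the members were higher in the LT arrays. Of 27 tested members, 13 rose, 0 fell and 14 were not called, against 6.13% of all genes higher and 3.45% lower in this comparison. At an unadjusted p under 0.05 in limma, 17 were higher and 2 lower, against 13.5% and 12.3% of all genes. The median log2 change was 0.36, or 0.21 with 6 members at their bounds, against -0.01 over all genes. For the 7 members that passed the filter without any LPS array, a call of lower in LT was hardly open. Without the filter, 12 of 32 members were higher and 0 lower, against 457 and 232 of 16593 genes. LT and LPS arrays did not overlap for 20 members, and for 29.2% of all genes.

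The largest rise was that of Slc4a1, at 3.91-fold (1.97 ± 0.16, adjusted p = 6.7e-05). The lowest LT array held 3263 and the highest LPS array 1244. Trim10 was 2.52-fold higher in LT (1.34 ± 0.10, adjusted p = 3.7e-05), although its second probe, with that LPS mean under the threshold, was not called. Alas2 was 1.81-fold higher (0.86 ± 0.16, adjusted p = 0.0076), and Hba-a1 1.76-fold (0.82 ± 0.10, adjusted p = 0.00059). For all of these the LT arrays stood above every LPS array and below every PBS array.

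Smaller rises were called in each of the other roles but the mitochondrial carriers. Of the heme enzymes, Alad rose by 0.65 ± 0.11 (adjusted p = 0.0041) beside Alas2, and the other 5 were not called, with changes between -0.21 for Ppox and 0.21 for Urod. Of the membrane proteins, Ermap rose at least 1.51-fold (adjusted p = 0.0010) and Kel at least 1.31-fold (adjusted p = 0.011). Rhag was not called by the probe used (0.08 ± 0.09), while that other probe was called higher (adjusted p = 0.017 over all probes). Of the regulators, Klf1 rose by 0.59 ± 0.09 (adjusted p = 0.0035), Tal1 by 0.57 ± 0.10 (adjusted p = 0.0057) and Hemgn at least 1.10-fold (adjusted p = 0.0057). Prdx2 rose by 0.59 ± 0.11 (adjusted p = 0.0076), Car2 by 0.79 ± 0.17 (adjusted p = 0.016) and Tmod1 at least 1.05-fold (adjusted p = 0.047).

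The regulators not called in this comparison were Epor, Lmo2, Nfe2 and Gfi1b. Epor was at 205 ± 13.4 in LT, 199.7 ± 6.36 in LPS and 351 ± 6.57 in PBS, with overlapping LT and LPS arrays and a change of 0.06 ± 0.09 (adjusted p = 0.75). Lmo2 had every LT array above every LPS array, but by 0.15 ± 0.08 (adjusted p = 0.29). Nfe2 and Gfi1b had every LT array below every LPS array, by -0.09 ± 0.08 and -0.21 ± 0.09, and neither was called (adjusted p = 0.48 and adjusted p = 0.16). Icam4 and Xpo7 were above background on no LPS array, and neither was called higher in LT (adjusted p = 0.065 and adjusted p = 0.18).

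The LT arrays were not equal in these genes. Among the 13 members that rose, LT 2 was the lowest LT array for 10 and LT 1 the highest for 8, and over the 628 genes higher in LT than in LPS, LT 2 was the lowest for 399 and LT 1 the highest for 379. Slc4a1 had its highest and lowest LT arrays apart by a factor of 1.69, and Alas2 by 1.45, against 1.18 and 1.05 within LPS. Without LT 1, 10 members were higher, without LT 2, 12, and without LT 3, 13. Slc4a1 then changed by 1.80, 2.18 and 1.92, and Alas2 by 0.76, 1.04 and 0.76, all of them called. Over all genes, 264 were called higher without LT 1. The calls of Kel and Car2 were lost without LT 1 (adjusted p = 0.055 and adjusted p = 0.073), and that of Car2 also without LPS 1 or LPS 3 (both adjusted p = 0.061). Tmod1 passed narrowly and lost its call without background correction, without the filter on dim probes, in a fit of both groups alone, and without PBS 1, PBS 3, LT 1, LT 2, LPS 1 or LPS 3 (adjusted p from 0.057 to 0.17).

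**Figure D3:**
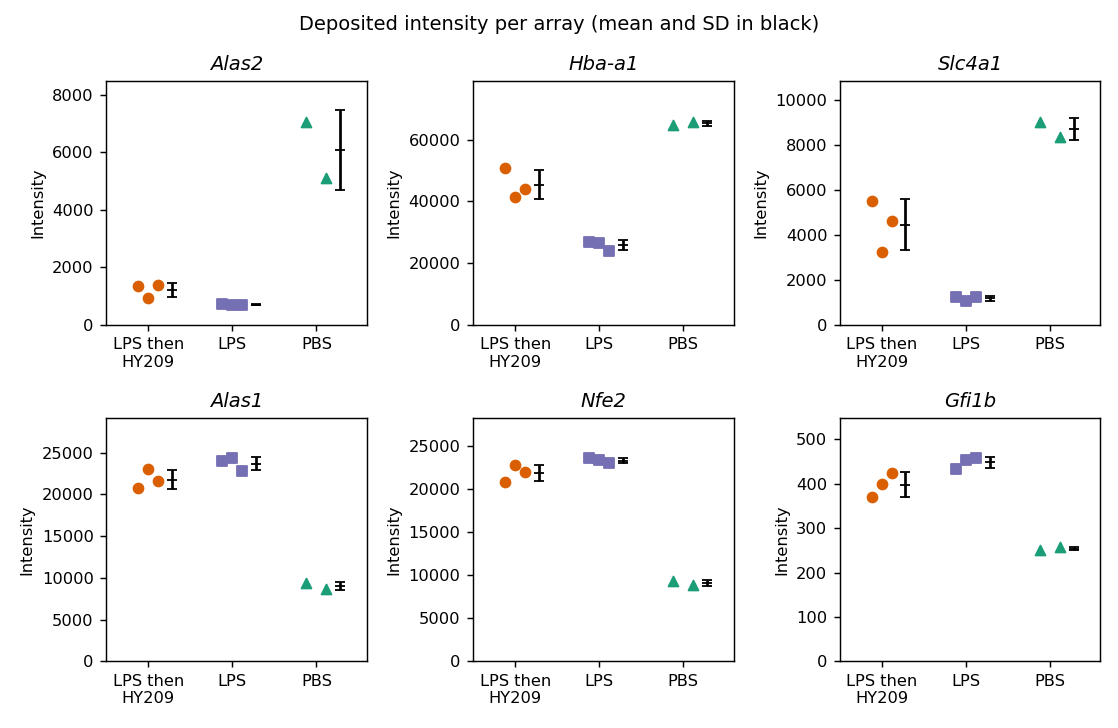
Deposited intensity of 6 genes in each array, in arbitrary units with the mean and SD in black; groups run from LPS then HY209 (n = 3) to LPS (n = 3) and PBS (n = 2). Alas2, Hba-a1 and Slc4a1 are lowest in LPS and highest in PBS, and Alas1, Nfe2 and Gfi1b are lowest in PBS.

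The comparison of LT with PBS shares its arrays with both others, and its values are a description of where the LT arrays stood. Of 27 members, 17 were lower and 2 higher in LT than in PBS (26.0% and 21.5% of all genes), with a median log2 change of -0.51, and 22 had arrays that did not overlap (64.6% of all genes). Alas2 was still 5.22-fold lower (-2.38 ± 0.17, adjusted p = 3.5e-07) and Trim10 3.63-fold (-1.86 ± 0.11, adjusted p = 7.4e-08). Slc4a1 was 2.01-fold lower (-1.01 ± 0.18, adjusted p = 0.00055) and Hba-a1 1.44-fold (-0.53 ± 0.11, adjusted p = 0.0014). Lmo2 and Epor stood at -1.04 ± 0.09 and -1.05 ± 0.10, Prdx2 at -1.01 ± 0.12 and Klf1 at -0.86 ± 0.10. Nfe2 was higher by 1.26 ± 0.09 and Gfi1b by 0.82 ± 0.10. Tmod1 differed by -0.02 ± 0.12 and was not called (adjusted p = 0.90).

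Across the 3 groups, 15 of the 27 members had every LT array above every LPS array and below every PBS array, an order found for 8.27% of all genes. They were Hba-a1, Alas2, Alad, Urod, Slc4a1, Kel, Ermap, Icam4, Trim10, Prdx2, Car2, Klf1, Tal1, Hemgn and Lmo2. In Nfe2 and Gfi1b every LT array was below every LPS array and above every PBS array (8.17% of all genes), and 10 members had neither order.

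A list of 64 symbols of further erythroid genes does not count the members and includes older symbols of some genes. It had 48 genes on the array and 41 tested. After LPS 20 of them fell and 9 rose, with a median log2 change of -0.19, against 30.0% lower and 25.6% higher over all genes. In LT against LPS 12 rose and 1 fell (median 0.08), against 6.13% and 3.45% of all genes. In LT against PBS 17 were lower and 11 higher, against 26.0% and 21.5% of all genes. Alas1, the enzyme that starts heme synthesis in all tissues, moved opposite to its erythroid counterpart. It had 20743, 23033 and 21576 in LT arrays, 23970.5, 24327 and 22817 in LPS arrays and 9415 and 8732 in PBS arrays, with every LPS array above both PBS arrays (1.39 ± 0.09, adjusted p = 1.1e-07) and overlapping LT and LPS arrays (-0.12 ± 0.08, adjusted p = 0.38).

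Aqp1, the water channel of the red cell membrane, which endothelium also carries, had 792, 596 and 737 in LT arrays, 254, 226 and 287 in LPS arrays and 1548 and 1595 in PBS arrays. It fell by 3.01 ± 0.15 on the log2 scale after LPS (adjusted p = 1.1e-08) and was 3.41-fold higher in LT than in LPS (1.77 ± 0.13, adjusted p = 3.7e-05). Hbb-bt, a beta globin gene, had 1812, 1450.1 and 2037 in LT arrays, 1470.2, 1101 and 1217 in LPS arrays and 3709 and 3878 in PBS arrays and changed by -1.65 ± 0.15 after LPS (adjusted p = 2.1e-06). Beta globin copies are near-identical, so its probe may read several of them. Hbb-bt was also called higher in LT than in LPS (0.50 ± 0.14, adjusted p = 0.042). Its lowest LT array nevertheless lay below its highest LPS array. Hbb-b2, another beta globin gene, was above background on no LPS or LT array. After LPS it was at least 1.15-fold lower (adjusted p = 0.0045), and in LT against LPS it was not called (adjusted p = 0.52). Cat, which encodes catalase, changed by -2.05 ± 0.12 after LPS, the biliverdin reductase Blvrb by -1.99 ± 0.11 and the corepressor Cbfa2t3 by -1.84 ± 0.10. Against PBS, the LT arrays of these genes were also lower, at -1.92 ± 0.12, -1.80 ± 0.11 and -1.50 ± 0.10. In LT against LPS, Cbfa2t3 was called higher (0.34 ± 0.09, adjusted p = 0.036), and Cat and Blvrb were not called (adjusted p = 0.46 and adjusted p = 0.26).

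The further genes with the largest rises in LT over LPS, beside Aqp1, were Tmcc2 (0.75 ± 0.13), the globin switching repressor Bcl11a (0.69 ± 0.08), the transferrin receptor Tfrc (0.61 ± 0.09), the GATA1 cofactor Zfpm1 (0.60 ± 0.09) and the membrane skeleton protein gene Dmtn (at least 1.12-fold). Tfrc, through which progenitors and dividing cells take up iron, had 1766, 1515 and 1609 in LT arrays, 1046, 1125 and 1093 in LPS arrays and 1359 and 1439 in PBS arrays. The gene that fell in LT was Isg20 (-0.50 ± 0.10, adjusted p = 0.012), an interferon-induced exonuclease that erythroid cells also express. After LPS Isg20 had risen 6.13-fold, at 2164 ± 254 in LT, 3019 ± 161 in LPS and 549 ± 41.0 in PBS. Ube2l6, a conjugating enzyme for the ubiquitin-like ISG15, was 2.50-fold higher in LT than in PBS (1.32 ± 0.14), and Alas1 2.41-fold (1.27 ± 0.09).

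Markers of other cell types moved in the same arrays, and their part in the results above was not tested. Over all genes, 30.0% were lower and 25.6% higher after LPS, and 6.13% were higher and 3.45% lower in LT against LPS. Of 14 tested endothelial markers, 13 fell after LPS and 9 rose in LT against LPS. Their summed intensity was 33.0% to 48.2% of the PBS mean in LT arrays, 23.8% to 24.4% in LPS arrays and 95.2% to 105% in PBS arrays. In these sums bright probes weigh most. Plvap, a protein of endothelial fenestrae, was at 1086 ± 442 in LT, 292 ± 26.0 in LPS and 3218 ± 157 in PBS. Stab2, also bright in PBS, was at 391 ± 75.3 in LT, 356 ± 7.49 in LPS and 3525 ± 338 in PBS. It was not called in LT against LPS (adjusted p = 0.60 in limma). Among 11 tested platelet and megakaryocyte markers, 8 fell after LPS and 9 rose in LT against LPS, with sums of 80.4% to 84.7% in LT, 59.7% to 63.1% in LPS and 95.7% to 104% in PBS. LT 2 was the lowest LT array for 8 of the 9 endothelial and 8 of the 9 platelet markers that rose.

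Of 7 tested markers of dividing cells, 2 fell and 1 rose after LPS and 6 rose in LT against LPS, with sums of 120% to 155% of the PBS mean in LT, 91.3% to 92.1% in LPS and 99.6% to 100.4% in PBS. Of 6 tested B cell markers, all fell after LPS and 4 rose in LT, with sums of 26.5% to 29.5% in LT, 17.3% to 18.3% in LPS and 98.9% to 101% in PBS. The 12 tested red pulp macrophage markers went differently, with 11 lower after LPS and 7 lower in LT against LPS, and sums of 23.1% to 25.0% in LT, 28.2% to 29.5% in LPS and 99.1% to 101% in PBS. The T and NK cell markers (5 of 5 lower after LPS) had sums of 29.0% to 38.7% in LT, 28.6% to 30.1% in LPS and 98.0% to 102% in PBS, and 0 of them was called in LT against LPS (1 at an unadjusted p under 0.05 in limma). For 11 neutrophil markers the sums were 112% to 115% in LT, 115% to 119% in LPS and 99.3% to 100.7% in PBS, with 5 higher and 2 lower after LPS and 0 called in LT (1 at an unadjusted p under 0.05). For 4 monocyte markers they were 210% to 214% in LT, 209% to 214% in LPS and 99.2% to 100.8% in PBS, with 3 higher and 1 lower after LPS and 0 called in LT (0 at an unadjusted p under 0.05). Most of that sum came from Fcgr4, an Fc receptor gene, at 63762 ± 1021 in LT, 64438 ± 614 in LPS and 27518 ± 676 in PBS. The chemokine receptor gene Cx3cr1 was lower after LPS, at 223 ± 25.2 in LT, 198 ± 7.99 in LPS and 1320.3 ± 201 in PBS. Fcgr4 in LT and LPS and bright neutrophil markers such as S100a8 lay near the highest intensity (66399), where differences can be compressed. For 7 markers of eosinophils, basophils and mast cells the sums were 51.8% to 55.0% in LT, 54.7% to 57.7% in LPS and 98.0% to 102% in PBS, with 3 lower and 4 not called after LPS and 0 called in LT (1 at an unadjusted p under 0.05). Ccr3, the eosinophil chemokine receptor, was at 143 ± 6.93 in LT, 152 ± 1.96 in LPS and 1449.5 ± 126 in PBS, above background in no LT or LPS array, and made up most of the difference between the sums.

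**Figure D4:**
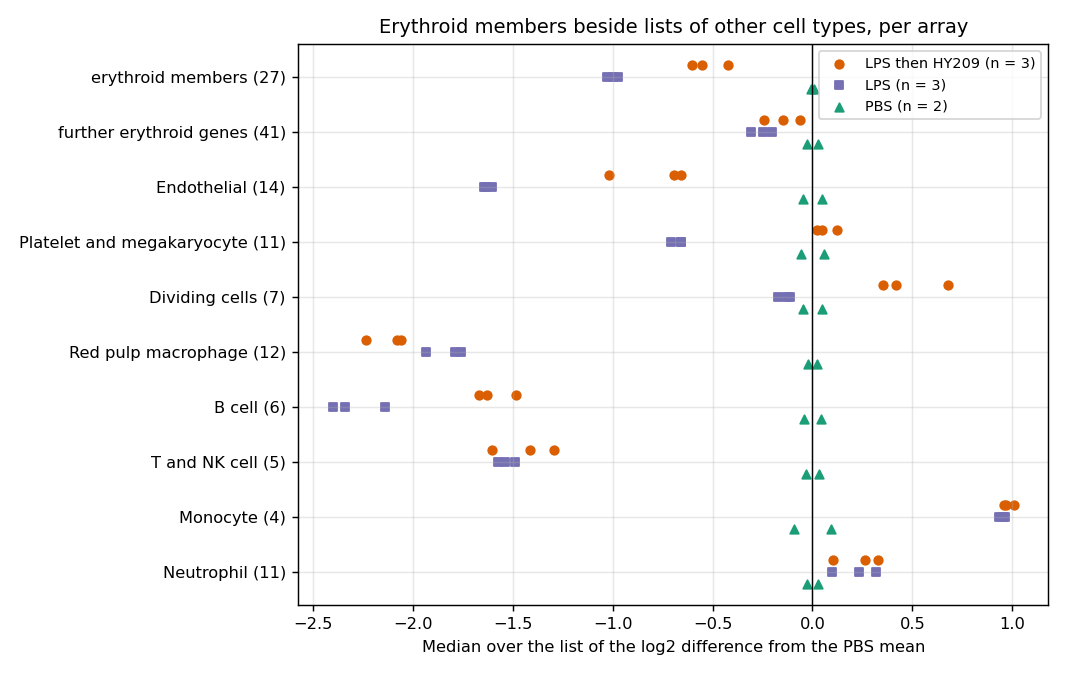
Median over each list of the log2 difference from the PBS mean, with 1 point per array (circles LPS then HY209, squares LPS, triangles PBS) and the number of tested genes in brackets. The erythroid members lie near -1 in LPS and between -0.60 and -0.42 in LPS then HY209, and the endothelial, platelet, B cell and dividing cell lists also lie higher in LPS then HY209 than in LPS.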

How the data were processed

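The authors deposited linear intensity values for 8 arrays, quantile normalized (the columns' quantiles agree within 0.0616%) and not background-subtracted, with a lowest value of 108.9. The submitters' processing notes name GenomeStudio 2011.1 and R 2.15.0. A deposited table with 16 columns of signal and detection p-values is not used here, as none of its columns is named for a sample title, and a background threshold took the place of a filter on detection p-values.

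Background was corrected with normexp (offset 50) in limma 3.58.1 (R 4.3.3), and the values were quantile normalized again and put on a log2 scale. Probes above the upper 5% bound of background (168.6, with its mode at 148) on at least 2 arrays were kept, 14789 of 25697. Platform annotation gave 23978 probes 1 symbol, 0 several and 1719 none, and matching 23962 by Entrez identifier to RefSeq changed 0. Apart from the promoter windows (GRCm38.p6), gene positions are not used here, since the deposited files name no build.

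All 8 arrays entered 1 linear model of group means (lmFit and eBayes, two-sided, residual df of 5 and prior df of 6.59), and p-values were adjusted by Benjamini-Hochberg across 10252 genes. Standard errors of the log2 changes had a median of 0.11 for LPS against PBS, 0.10 for LT against LPS and 0.11 for LT against PBS, and the number of arrays limits this precision. Tested on simulated data in this order, the fit recovered 91.7%, 99.1% and 96.7% of genes with a log2 change of 1, and 55.8%, 73.0% and 57.8% of those with 0.5. Each simulation left 10052 of the 10252 genes unchanged. Far more genes were called in the data, and the adjustment depends on that share, so recovery there can differ. For a group with 0 arrays over the threshold, folds are lower bounds taken against that threshold on the corrected log2 scale (6.66).

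The members and lists were chosen with earlier results of these data known. All members are described. Of the further erythroid genes, up to 6 with the largest called changes per comparison are named. Markers could be named if among the 3 with the highest mean of their list, as S100a8, Plvap, Fcgr4 and Ccr3 were. They could also be named if past the test where 5 or fewer of the list were, as Cx3cr1 was. Stab2, Hbb-b2 and the genes of the closing section were named after their values were seen. Groups and numbers follow the sample titles, although PBS 3 is number 2 in its description. Residuals of same-numbered arrays correlated by 0.05, 0.30 and 0.27 between LT and LPS and from -0.19 to 0.10 with PBS. The main fit did not treat the numbers as pairs, and whether they mark pairs cannot be told. Alternatives were other background, scaling, filter and probe rules, fits of 2 groups, a replicate block, array weights and leaving out each array. Promoter windows come from RefSeq (GRCm38.p6), and for a gene with several windows only the first listed one was counted. Uros held a GATA motif, and Tal1 a CACC box, only in a later window, and these are not counted.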

Additional observations from a re-analysis of the deposited data

How the results depend on the processing

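No member called in the main fit or in an alternative had opposite directions in them. For results called in neither fit, direction was not compared. The counts of members kept within 1.5 times their values above in every setting. With an array left out, 18 to 21 members were lower and 2 higher in LPS against PBS, 10 to 13 higher and 0 lower in LT against LPS, and 15 to 17 lower and 2 higher in LT against PBS. Of the single results of members across settings, 1248 kept their call or stayed uncalled, 26 lost the call and 10 gained it. Calls lost were those of Tmod1 and Xpo7 in LPS against PBS, of Tmod1, Kel and Car2 in LT against LPS, and of Alad and Abcb10 in LT against PBS. Calls gained were those of Sptb, Icam4, Urod and Xpo7, and the cause was not tested. Over all genes, LT against LPS was more open to single arrays, with 264 genes higher without LT 1 and 759 without LT 2, and 142 lower without LPS 1 and 388 without LT 2, against 628 and 354 with all arrays. There were 232 lower without the filter on dim probes, where 16593 genes were tested. Scaling to the 75th percentile could move nothing, since the deposited arrays already share their quantiles, and it is not counted here.

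A replicate block for the array number gave 2 members higher and 20 lower in LPS against PBS, 13 and 0 in LT against LPS and 2 and 17 in LT against PBS, and with PBS 3 taken as number 2 it gave 2 and 21, 13 and 0, and 2 and 17. The block changed no count of members by over 1.5 times. Over all genes, the block of title numbers gave 757 higher and 452 lower in LT against LPS, against 628 and 354 without it. Signal limits the dim members, since 7 were above background on no LPS array and 5 were not tested.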

Other observations

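The following genes around heme synthesis were chosen after their values were seen. Glrx5, which acts in iron-sulfur cluster assembly, had 2302, 1991 and 2309 in LT arrays, 1700.3, 1577 and 1699.8 in LPS arrays and 2959.6 and 2812 in PBS arrays. It fell after LPS (-0.82 ± 0.10, adjusted p = 1.9e-05 in limma) and was higher in LT than in LPS (0.42 ± 0.09, adjusted p = 0.014). Slc25a38, which brings glycine into mitochondria for heme synthesis, was at 6761 ± 422 in LT, 7198 ± 445 in LPS and 5607 ± 418 in PBS and rose after LPS (0.36 ± 0.10, adjusted p = 0.0082). Abcb6, a porphyrin transporter, was at 303 ± 20.4 in LT, 274 ± 21.5 in LPS and 292 ± 1.72 in PBS, and its change after LPS was not called (-0.13 ± 0.11, adjusted p = 0.34). Slc25a39, a mitochondrial carrier of glutathione, was not called either (0.11 ± 0.12, adjusted p = 0.47), at 878 ± 107 in LT, 940.4 ± 14.8 in LPS and 880.5 ± 97.8 in PBS. Tspo2, an erythroid relative of the translocator protein, was at 194 ± 5.81 in LT, 171 ± 13.7 in LPS and 223 ± 15.4 in PBS and fell after LPS (-0.59 ± 0.12, adjusted p = 0.0011).

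Other erythroid genes of the further list are given here in the same way. Ank1, which encodes ankyrin and ties spectrin to band 3, had 229.7, 213 and 223 in LT arrays, 182, 169 and 180.2 in LPS arrays and 343 and 333 in PBS arrays. It fell after LPS (-1.31 ± 0.10, adjusted p = 2.6e-07) and was higher in LT than in LPS (0.50 ± 0.09, adjusted p = 0.0055). Add1, an adducin found in many cell types, was at 3649 ± 415 in LT, 4039 ± 247 in LPS and 3949 ± 192 in PBS and was not called after LPS (0.03 ± 0.11, adjusted p = 0.82). The embryonic globin genes Hbb-bh1, Hbb-y and Hba-x were above background on no array. The erythroid urea transporter Slc14a1 had 225, 216 and 230.2 in LT arrays, 201, 171 and 193 in LPS arrays and 422 and 397 in PBS arrays, with a change of -1.51 ± 0.11 after LPS (adjusted p = 3.4e-07) and of 0.38 ± 0.10 in LT against LPS (adjusted p = 0.039).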
